A study of Mus musculus with 6 samples.

Results

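Circadian clock genes were followed across 6 bulk RNA-seq libraries of mouse aorta. The members are Arntl, Npas2, Nr1d1, Nr1d2, Dbp, Ciart, Per1, Per2, Per3 and Cry1, taken by symbol from the deposited count table. Each symbol matched a single identifier, and they were chosen by symbol and role with their counts in these 6 libraries already known, so that their levels and differences are a description. In all, 10 of the 56748 genes in the table are described, and all 10 were among the 16377 genes that passed the low-count filter. The libraries are 3 sST2-KO aortas and 3 aortas of wild-type littermates (WT). sST2 is the soluble form of ST2, a decoy receptor for the cytokine IL-33 encoded by Il1rl1. All 6 mice were labelled ApoE-KO, were 6 months old at assignment and received angiotensin II from an osmotic minipump for 28 days before the aorta was taken. The sources used here do not state how the sST2 allele was made, the sex of the mice or the time of day of harvest. The series asks how loss of sST2 affects aortic disease, and the clock genes were read here for the phase of each library.

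The clock of mammalian cells is a transcriptional loop. BMAL1, the product of Arntl, pairs with CLOCK or with NPAS2 and activates genes with E-box elements, among them the Per and Cry genes, Nr1d1, Nr1d2, Dbp and Ciart. PER and CRY proteins then repress that activation, the REV-ERB receptors encoded by Nr1d1 and Nr1d2 repress Arntl and Npas2, and DBP activates genes with D-box elements. In mouse peripheral tissues, the aorta included, Arntl and Npas2 peak near the end of the night and early morning. Nr1d1 follows first, then Dbp, Nr1d2, Ciart and Per3, then Per1 and Per2, and Cry1 last, so that the Arntl arm and the Per arm run in opposite phase.

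RefSeq promoter windows (build GRCm38.p6, 250 bases before to 50 after a start) were found for 9 members, and Per2 had none. They are printed because these elements tie the members into the loop described above. The E-box CACGTG occurred in a window of 3 of the 9 members (Ciart, Per1, Cry1) and in 7.15% of all 32817 windows of the same length. The D-box TTANGTAA occurred in 1 of 9 (Per3) and in 2.32% of all windows. AGGTCA, the core of the element that REV-ERB and ROR receptors bind, occurred in 3 of 9 (Arntl, Nr1d2, Per1) and in 16.3%. The E-box variant CACGTT occurred in 2 of 9 (Cry1, Nr1d1) and in 4.69%. Both strands were searched, CACGTG reads the same on both, and the motifs do not overlap each other in the sequences shown. Members were counted by gene, with a match in any window, and Arntl and Per1 had 2 windows each, while the shares over all windows are per window. A match is a run of letters and not a measured binding site. In the sequences below, 5′ to 3′ on the strand of the gene, capitals mark the E-box in Ciart, Per1 and Cry1, the D-box in Per3 and AGGTCA in Arntl. Ciart (chr3:95882229-95882478, minus strand), Per1 (chr11:69098699-69098948, plus strand) and Per3 (chr4:151044666-151044915, minus strand) are shown for the 250 bases before the start. Cry1 (chr10:85185097-85185126, minus strand) and Arntl (chr7:113207530-113207559, plus strand, just after the start) are shown for 30 bases.
Ciart: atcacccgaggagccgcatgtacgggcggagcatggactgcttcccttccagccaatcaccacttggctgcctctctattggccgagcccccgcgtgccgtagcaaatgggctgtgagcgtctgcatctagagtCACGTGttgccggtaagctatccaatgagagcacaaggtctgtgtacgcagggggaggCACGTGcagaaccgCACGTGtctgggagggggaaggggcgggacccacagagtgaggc
Per1: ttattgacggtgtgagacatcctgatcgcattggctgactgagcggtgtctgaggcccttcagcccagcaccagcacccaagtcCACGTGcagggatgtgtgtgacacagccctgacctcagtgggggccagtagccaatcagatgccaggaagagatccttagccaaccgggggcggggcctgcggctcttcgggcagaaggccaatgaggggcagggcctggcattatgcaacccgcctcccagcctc
Per3: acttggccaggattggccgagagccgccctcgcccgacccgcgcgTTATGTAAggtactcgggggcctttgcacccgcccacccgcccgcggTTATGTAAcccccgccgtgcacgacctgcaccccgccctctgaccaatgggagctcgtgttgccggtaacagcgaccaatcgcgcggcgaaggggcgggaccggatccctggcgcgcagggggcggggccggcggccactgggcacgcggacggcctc
Arntl: aaggcagaaagtAGGTCAgggacggaggtg
Cry1: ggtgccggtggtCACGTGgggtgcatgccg

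Library facts that bear on the values are these. Totals were 15615658 to 17988552 counts, and the members had 9 to 3815 counts per library. Il1rl1 had 2.39, 2.82 and 4.86 CPM (library-size-scaled counts after TMM normalization) in sST2-KO replicates 1 to 3 and 2.81, 9.49 and 4.35 CPM in WT replicates 1 to 3, a count that adds the soluble and the membrane isoform and so checks the genotype only weakly. Apoe had 172, 86.7 and 145 CPM in sST2-KO replicates 1 to 3 and 15.1, 11.6 and 507 CPM in WT replicates 1 to 3. Its CPM thus differed 43.9-fold within WT, which the shared ApoE-KO label does not account for. The highest value was in WT replicate 3, the library with the hepatocyte markers given below, whose part in it was not tested. WT replicates 1 and 2 lay below every sST2-KO library. The sources used here do not state which part of Apoe is deleted, so gene counts do not settle the label of any library. Summed smooth muscle markers (Acta2, Myh11, Tagln, Cnn1, Smtn) had 4834 to 10206 CPM in sST2-KO and 2893 to 9016 CPM in WT. sST2-KO replicate 2 had 35262 CPM of 7 airway epithelium markers, against at most 32.8 CPM in the other 5 libraries, and WT replicate 3 had 9462 CPM of 6 hepatocyte markers, against at most 14.5 CPM. In bulk tissue, fewer cells of a type and less RNA per cell cannot be told apart.

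The clock genes set sST2-KO replicate 1 apart from the other 5 libraries, and they did not separate the groups. In that library Arntl and Npas2 were the highest of the 6, and Nr1d2, Dbp, Ciart, Per1, Per2, Per3 and Cry1 were the lowest. It held the lowest value for 7 of 10 members, while over all tested genes it held the lowest value for 12.4%. The median over the 10 members of log2 CPM in sST2-KO replicate 1 minus the median of the other 5 libraries was -1.23, and over all tested genes it was 0.010. Nr1d1 was the exception, since its level lay within the range of the other libraries.

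**Figure D1:**
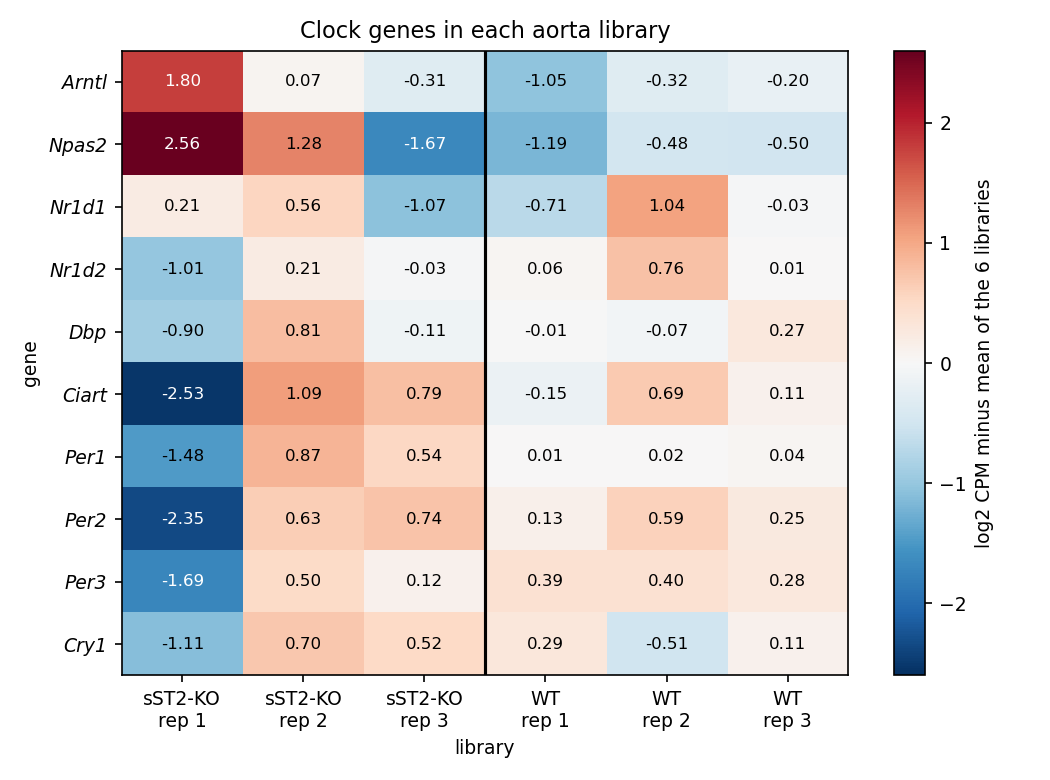
Heat map of log2 CPM minus the mean of the 6 libraries for each clock gene (rows) in each library (columns, sST2-KO left of the line and WT right of it). sST2-KO replicate 1 has 1.80 for Arntl and 2.56 for Npas2, and -2.53 for Ciart and -2.35 for Per2.

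Arntl (ENSMUSG00000055116, chromosome 7, 112806672 to 112913333, mm39) encodes BMAL1, the partner that the activating complex needs. It had 22.6, 6.73 and 5.12 CPM in sST2-KO replicates 1 to 3 and 3.03, 5.10 and 5.55 CPM in WT replicates 1 to 3. One library was thus high, 4.40-fold above the median of the other 5, and the remaining sST2-KO libraries lay close to WT. Npas2 (ENSMUSG00000026077, chromosome 1, 39232812 to 39402317) encodes the CLOCK paralog that also pairs with BMAL1. In sST2-KO replicates 1 to 3 it had 13.4, 5.44 and 0.599 CPM (235, 110 and 9 counts), and in WT replicates 1 to 3 it had 0.882, 1.51 and 1.49 CPM (16, 19 and 25 counts). sST2-KO therefore held both the highest and the lowest Npas2 library, with a 22.3-fold range, against 1.72-fold in WT. sST2-KO replicate 2, the second highest for Npas2, is the library with airway markers, whose part in that value was not tested. Gm3617, a processed pseudogene inside Npas2, reached 1.08 CPM in that first sST2-KO library, against 0 to 0.266 CPM in the other 5.

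Nr1d1 and Nr1d2 encode REV-ERB alpha and beta, heme-binding repressors of Arntl. Nr1d1 (ENSMUSG00000020889, chromosome 11, 98658758 to 98666159) had 128, 162 and 52.5 CPM in sST2-KO replicates 1 to 3 and 67.4, 227 and 108 CPM in WT replicates 1 to 3. The lowest library was sST2-KO replicate 3 and the highest WT replicate 2, and the ranges were alike, 3.09-fold in sST2-KO and 3.37-fold in WT. Thra lies on the opposite strand and overlaps Nr1d1 by 1075 bases, and the sources used here do not state whether counting used strand. Thra had 129, 98.3 and 76.5 CPM in sST2-KO replicates 1 to 3 and 72.2, 87.2 and 77.4 CPM in WT replicates 1 to 3. It was highest in sST2-KO replicate 1 and, within WT, in replicate 2, the library with the most Nr1d1, and its part in the Nr1d1 counts was not tested. Nr1d2 (ENSMUSG00000021775, chromosome 14, 4230569 to 4265642) had 65.3, 153 and 129 CPM in sST2-KO and 137, 224 and 133 CPM in WT. It was low in sST2-KO replicate 1, 2.10-fold below the median of the other 5 libraries, and high, like Nr1d1, in WT replicate 2.

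Dbp and Ciart are direct outputs of the activating complex. Dbp (ENSMUSG00000059824, chromosome 7, 45354512 to 45359627), a PAR bZIP activator, had 53.5, 176 and 93.0 CPM in sST2-KO replicates 1 to 3 and 99.9, 95.7 and 121 CPM in WT replicates 1 to 3. The sST2-KO group held the lowest and the highest library. The opposite-strand gene Sphk2 overlaps Dbp by 737 bases and had 29.0 to 31.1 CPM in sST2-KO and 16.7 to 24.9 CPM in WT. Ciart (ENSMUSG00000038550, chromosome 3, 95785815 to 95789563) encodes CHRONO, a repressor of BMAL1 complexes, and its promoter carries the 3 E-boxes shown above. In sST2-KO replicates 1 to 3 it had 1.48, 19.5 and 15.8 CPM (26, 394 and 237 counts), against 8.22, 14.7 and 9.84 CPM in WT replicates 1 to 3. Its level in sST2-KO replicate 1 was 9.98-fold below the median of the other libraries, the largest such fold among the 10 members. A non-coding gene on the opposite strand of Ciart had 2.87 to 4.99 CPM in sST2-KO and 2.79 to 4.41 CPM in WT.

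The period genes encode the PER repressors that enter the nucleus with CRY proteins. Per1 (ENSMUSG00000020893, chromosome 11, 68986043 to 69000786), which also responds to glucocorticoids and cAMP, had 36.9, 189 and 149 CPM in sST2-KO replicates 1 to 3 and 104, 104 and 106 CPM in WT replicates 1 to 3. Every sST2-KO library lay outside the WT range, 1 below it and 2 above. Per2 (ENSMUSG00000055866, chromosome 1, 91343704 to 91387046) had 15.7, 125 and 135 CPM in sST2-KO and 87.8, 121 and 95.3 CPM in WT, with the same arrangement. Per3 (ENSMUSG00000028957, chromosome 4, 151088109 to 151129122), whose role in the core loop is the weakest of the family, had 23.8, 109 and 83.7 CPM in sST2-KO and 101, 102 and 93.9 CPM in WT. Relative to the median of the other 5 libraries, sST2-KO replicate 1 was 2.88-fold lower for Per1, 7.73-fold lower for Per2 and 4.25-fold lower for Per3. Camta1, on the strand of Per3, spans it in the table and had 15.2, 27.4 and 28.5 CPM in sST2-KO and 14.4, 20.3 and 15.9 CPM in WT. Cry1 (ENSMUSG00000020038, chromosome 10, 84967564 to 85020928), the repressor that peaks last, had 5.57, 19.7 and 17.4 CPM in sST2-KO and 14.9, 8.45 and 13.1 CPM in WT. It was lowest in sST2-KO replicate 1 and next lowest in WT replicate 2, the library with the most Nr1d1.

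**Figure D2:**
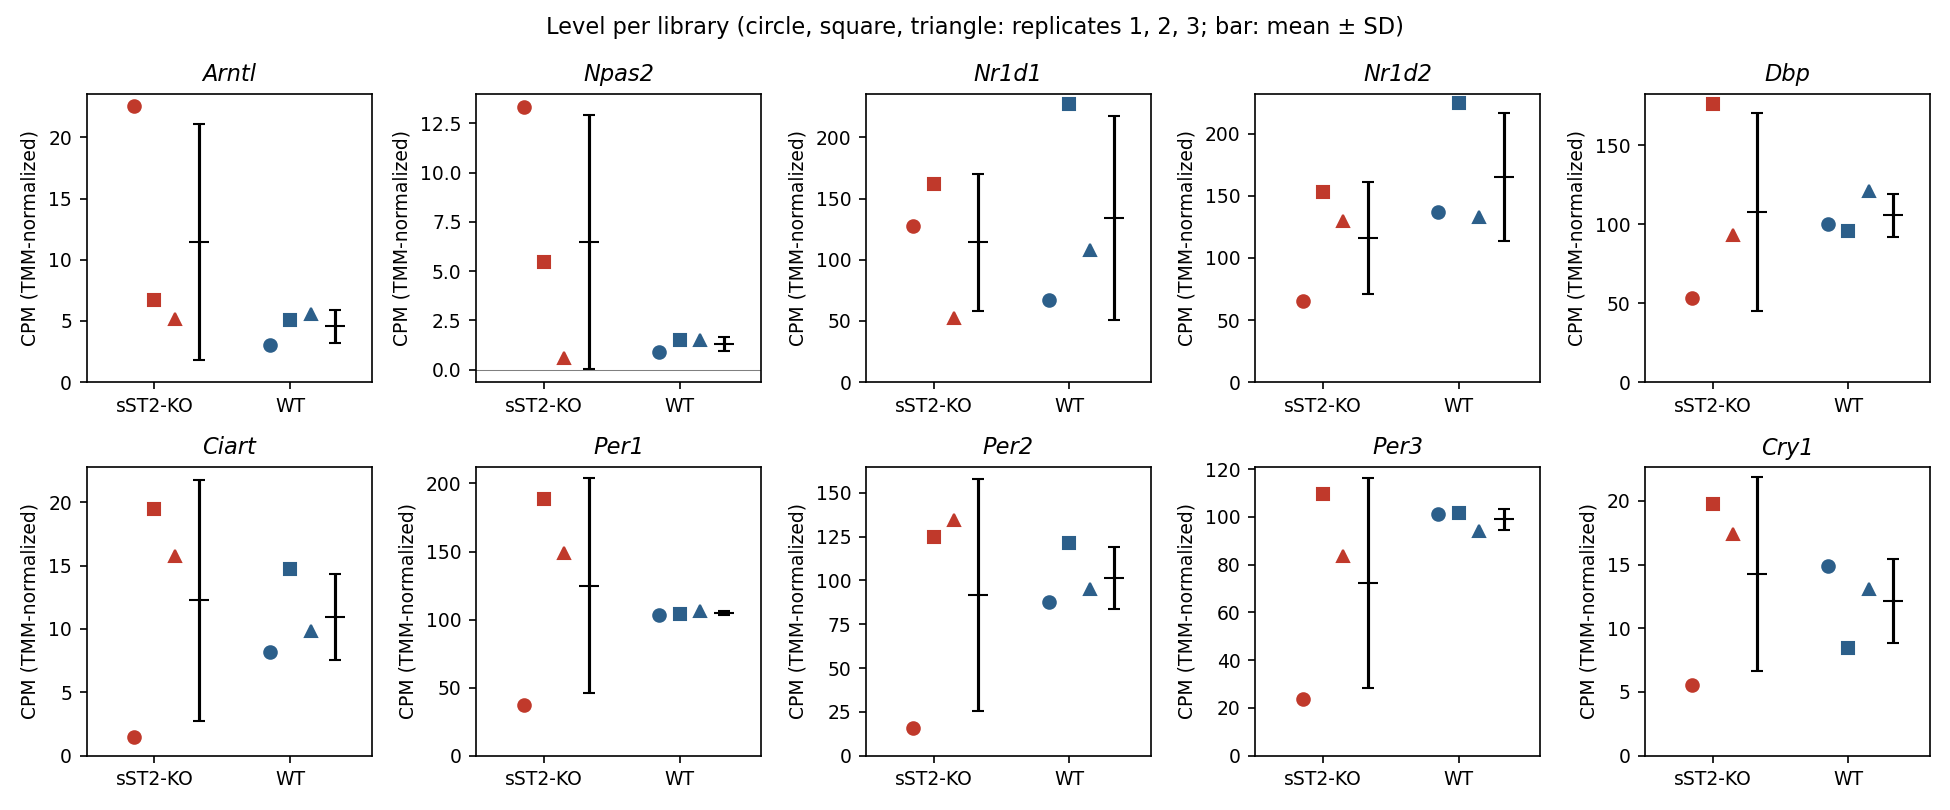
Level in CPM (linear axis from 0) of each clock gene in sST2-KO (red) and WT (blue) libraries, with replicates 1, 2 and 3 as circle, square and triangle and the mean ± SD (n = 3) as a bar. For Per1 the WT libraries lie at 104, 104 and 106 CPM and the sST2-KO libraries at 36.9, 189 and 149 CPM.

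Per kilobase of the gene length given in the table, the order of the mean levels over the 6 libraries was Nr1d1 (40.3 CPM per kb), Dbp (35.6), Nr1d2 (25.9), Per1 (20.4), Per2 (16.5), Per3 (8.91), Ciart (5.13), Cry1 (3.95), Arntl (1.07) and Npas2 (0.810). In 5 of the libraries Arntl lay at 0.403 to 0.894 CPM per kb and in sST2-KO replicate 1 at 3.00 CPM per kb, where it exceeded Per2 (2.68 CPM per kb) and Per3 (2.48 CPM per kb). Neighbours such as Nr1d1 and Dbp exchanged places between libraries.

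Ratios of genes within a library cannot be moved by library scaling, so they were used to read phase. A clock index was taken as the mean log2 CPM of Nr1d1, Nr1d2, Dbp, Ciart, Per1, Per2 and Per3 minus that of Arntl and Npas2, where a high value means a library far from the Arntl peak. It was 0.62, 4.18 and 5.32 in sST2-KO replicates 1 to 3 and 5.27, 5.08 and 4.68 in WT replicates 1 to 3. The 3 WT libraries spanned 0.59, and the sST2-KO libraries spanned 4.70 on this log2 scale. The mean was 3.37 ± 2.45 in sST2-KO and 5.01 ± 0.30 in WT (SD, n = 3 each), a difference of -1.64 that was -0.26 without sST2-KO replicate 1. Dbp counts were 2.37, 26.2 and 18.2 times those of Arntl in sST2-KO replicates 1 to 3 and 32.9, 18.8 and 21.9 times in WT replicates 1 to 3, so 5 libraries shared 1 range and sST2-KO replicate 1 lay below it.

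The ratio of Nr1d1, the first of the E-box genes to peak, to Per2, a later one, was chosen after the counts were seen and gives a finer order. It was 8.15, 1.30 and 0.390 in sST2-KO replicates 1 to 3 and 0.768, 1.87 and 1.13 in WT replicates 1 to 3. From early to late in the textbook order the libraries ran sST2-KO replicate 1, WT replicate 2, sST2-KO replicate 2, WT replicate 3, WT replicate 1 and sST2-KO replicate 3. On this ratio the WT libraries sat between the extremes of sST2-KO. On the ratio of Nr1d1 to Cry1 they did not, with 23.0, 8.21 and 3.01 in sST2-KO replicates 1 to 3 and 4.53, 26.9 and 8.25 in WT replicates 1 to 3, where WT replicate 2 was the highest, so the order of these 2 libraries depends on the pair of genes. In the textbook sequence, high Arntl and Npas2 with Nr1d1 already at mid-range and Ciart and Per2 low is the state of the morning side of the cycle. sST2-KO replicate 1 had these levels, and its Cry1, the member that peaks last, was the lowest of the 6 libraries (5.57 CPM). Thra, which overlaps Nr1d1, was highest in that library (129 CPM), and its part in the Nr1d1 level was not tested. WT replicate 2 had the highest Nr1d1 and Nr1d2 and low Cry1, without the other features of that morning state. Its Arntl (5.10 CPM) and Npas2 (1.51 CPM) were not high, and its Ciart (14.7 CPM) and Per2 (121 CPM) were the highest of WT. Its clock index of 5.08 and Dbp to Arntl ratio of 18.8 lay with the other WT libraries, so its place depends on the genes read. sST2-KO replicate 3 had low Nr1d1, low Npas2 (9 counts) and high Per2, which in the textbook sequence lie later in the cycle. Its Arntl (5.12 CPM) lay within the WT range of 3.03 to 5.55 CPM. Its clock index of 5.32 lay close to the 5.27 of WT replicate 1, so its place too depends on the genes read. sST2-KO replicate 2 did not fall at a single place, with the highest Dbp, Ciart, Per1, Per3 and Cry1 of the 6 libraries together with the second highest Npas2 and Arntl, and it is the library with airway markers. It held the highest value for 5 of 10 members, and over all tested genes for 23.6%. No clock time was assigned, since no sample of known harvest time is among the libraries.

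**Figure D3:**
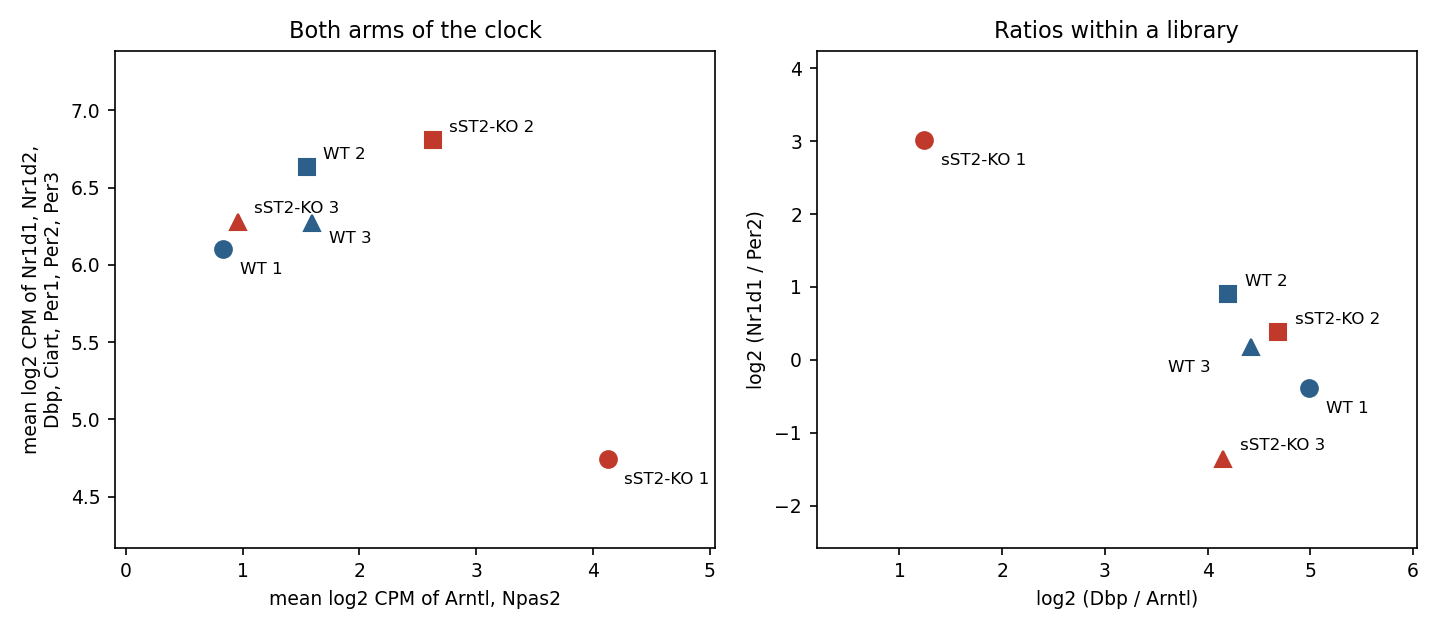
Left, mean log2 CPM of Nr1d1, Nr1d2, Dbp, Ciart, Per1, Per2 and Per3 against that of Arntl and Npas2; right, log2 of the Nr1d1 to Per2 ratio against log2 of the Dbp to Arntl ratio, 1 point per library (sST2-KO red, WT blue; number, replicate). sST2-KO replicate 1 lies alone in both panels, with a Dbp to Arntl ratio of 2.37, and the other 5 libraries lie at 18.2 to 32.9.

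Between the groups, no clock gene was called. Of the 10 members 0 passed an adjusted p of 0.05 in edgeR's quasi-likelihood test over all tested genes, where the share called was 0.00%, and DESeq2 called 0 of 10, with 1.78% of the genes entered called. At an unadjusted p under 0.05 there was 1 member, Npas2, with a background of 11.0%. The groups overlapped for 10 of 10 members, while 19.1% of all tested genes did not overlap. The member list was set with these data known, so these counts are a description. Npas2 had the largest log2 change of the members, 2.32 (SE 0.96), with 6.46 ± 6.44 CPM in sST2-KO and 1.30 ± 0.36 CPM in WT (SD, n = 3 each). Arntl had a log2 change of 1.33 (SE 0.61), with 11.5 ± 9.63 CPM in sST2-KO and 4.56 ± 1.34 CPM in WT (SD, n = 3 each). With sST2-KO replicate 1 left out, the log2 change was 1.23 for Npas2 and 0.38 for Arntl. The other members had log2 changes between -0.51 (Nr1d2, SE 0.36) and 0.26 (Per1, SE 0.52), with 6 of 10 members positive, a median of 0.096 and a median of 0.042 over all tested genes. Directions of the small changes were not stable, and Dbp at 0.026 (SE 0.41) was -0.021 with upper-quartile scaling.

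Spread within a group was larger in sST2-KO than in WT for most members, and that count rested on sST2-KO replicate 1. The SD of log2 CPM was the larger in sST2-KO for 9 of 10 members, Nr1d1 being the exception, and for 54.2% of all tested genes. Without sST2-KO replicate 1 it was the larger for 5 of 10 members (Npas2, Nr1d1, Dbp, Per1 and Per3) and for 51.2% of all tested genes. With any other library left out it was the larger for 9 or 10 of 10 members. The share of all tested genes then ran from 38.7% (without sST2-KO replicate 2) to 80.5% (without WT replicate 2), both beside 10 of 10 members. With all libraries, the median SD over the members was 1.15 in sST2-KO and 0.41 in WT, and over all tested genes 0.35 and 0.31. For Per1 the SD was 1.27 in sST2-KO and 0.019 in WT, and for Per2 it was 1.75 and 0.24. sST2-KO replicate 1 held most of this spread for most members, early and late. Over the other 2 sST2-KO libraries alone the SD was 0.24 for Per1, 0.077 for Per2, 0.27 for Per3 and 0.22 for Ciart. It was 0.27 for Arntl, 0.17 for Nr1d2 and 0.13 for Cry1. It was still 2.09 for Npas2, 1.15 for Nr1d1 and 0.65 for Dbp. These spreads were not tested, since the members were chosen with the values known.

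Other genes of the clock were taken from a list of 27 written from textbook knowledge, 26 of which were tested. Again 0 of 26 were called in either direction by edgeR and 0 by DESeq2, and the median log2 change was -0.037. At an unadjusted p under 0.05 in edgeR there were 1 higher and 1 lower of 26, with a background of 11.0%. These were Csnk1e, a casein kinase that phosphorylates PER proteins, with a log2 change of 0.39 (SE 0.16, adjusted p = 0.451 in edgeR), and Bhlhe41, an E-box repressor, with -0.69 (SE 0.26, adjusted p = 0.442 in edgeR). The groups did not overlap for 3 higher (Csnk1e, Csnk1d and Nfil3) and 1 lower (Bhlhe41) of 26, and for 19.1% of all tested genes. Bhlhe41 had 19.8, 32.9 and 26.4 CPM in sST2-KO replicates 1 to 3 and 34.3, 54.6 and 38.7 CPM in WT replicates 1 to 3, with no overlap. Clock, the partner of BMAL1 whose mRNA cycles weakly in most tissues, had 52.6, 35.8 and 38.6 CPM in sST2-KO and 31.5, 58.0 and 36.4 CPM in WT. Among core genes, sST2-KO replicate 1 was lowest for Tef, Hlf, Rora, Bhlhe41 and Cipc, 5 of 10 tested, against 12.4% of all tested genes. Tef and Hlf are the PAR bZIP relatives of Dbp. Tef had 114, 322 and 294 CPM in sST2-KO and 236, 278 and 221 CPM in WT, and Hlf had 13.9, 67.9 and 29.4 CPM in sST2-KO and 34.8, 50.9 and 32.1 CPM in WT. For both genes sST2-KO replicate 1 was the lowest library and sST2-KO replicate 2 the highest. Nfil3, the repressor that competes with them at D-boxes and peaks in the opposite phase, had 12.0, 11.8 and 22.6 CPM in sST2-KO and 9.15, 1.12 and 11.2 CPM in WT, without overlap and without a call (log2 change 1.10, SE 0.74). Cry2, the second cryptochrome, had 41.3, 79.1 and 53.6 CPM in sST2-KO and 39.2, 51.8 and 40.4 CPM in WT. Rorb had at most 23 counts and was not tested.

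Regulators of clock proteins varied less. sST2-KO replicate 1 was lowest for 4 of 11, among them Usp2, a deubiquitinase that cycles in many tissues, with 9.43, 41.0 and 26.9 CPM in sST2-KO replicates 1 to 3 and 19.6, 10.05 and 15.03 CPM in WT replicates 1 to 3. Of 5 output genes, 3 were lowest in that library, namely Wee1 (a cell cycle kinase under E-box control), Tspan4 and Tsc22d3. The other 2 lay within the range of the other libraries, with Por at 147 CPM there and 117 to 611 CPM in the others, and Lonrf3 at 1.53 CPM there, 2.32-fold above the median of the others. Wee1 had 7.39, 20.9 and 26.7 CPM in sST2-KO and 21.4, 32.2 and 26.8 CPM in WT. Genes that glucocorticoids induce were read beside the clock because Per1 is also such a target. Their level was lowest in sST2-KO replicate 1 for 8 of 10 genes, against 12.4% of all tested genes, with Zbtb16 at 10.4 CPM there and 39.4 to 71.6 CPM in the other 5 libraries and Fkbp5 at 35.4 CPM there and 78.9 to 116 CPM in the others. In the immediate early list, that library was lowest for 6 of 10 genes, among them Fos, with 13.6, 32.7 and 16.2 CPM in sST2-KO and 40.3, 53.3 and 45.6 CPM in WT, while Egr1 had 57.0, 53.1 and 73.4 CPM in sST2-KO and 93.4, 121 and 90.1 CPM in WT. The groups did not overlap for either gene, 2 of 10 in that list, and for 19.1% of all tested genes. Of the glucocorticoid and immediate early lists 0 genes were called by edgeR. The lists are not independent, since Tsc22d3 is counted among both the output and the glucocorticoid genes. Dusp1, also lowest in sST2-KO replicate 1, is counted in both the glucocorticoid and the immediate early list. The share of 12.4% of all tested genes stands beside each of the counts of lowest genes in this paragraph. The part of hormone state or handling in the clock values was not tested.

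**Figure D4:**
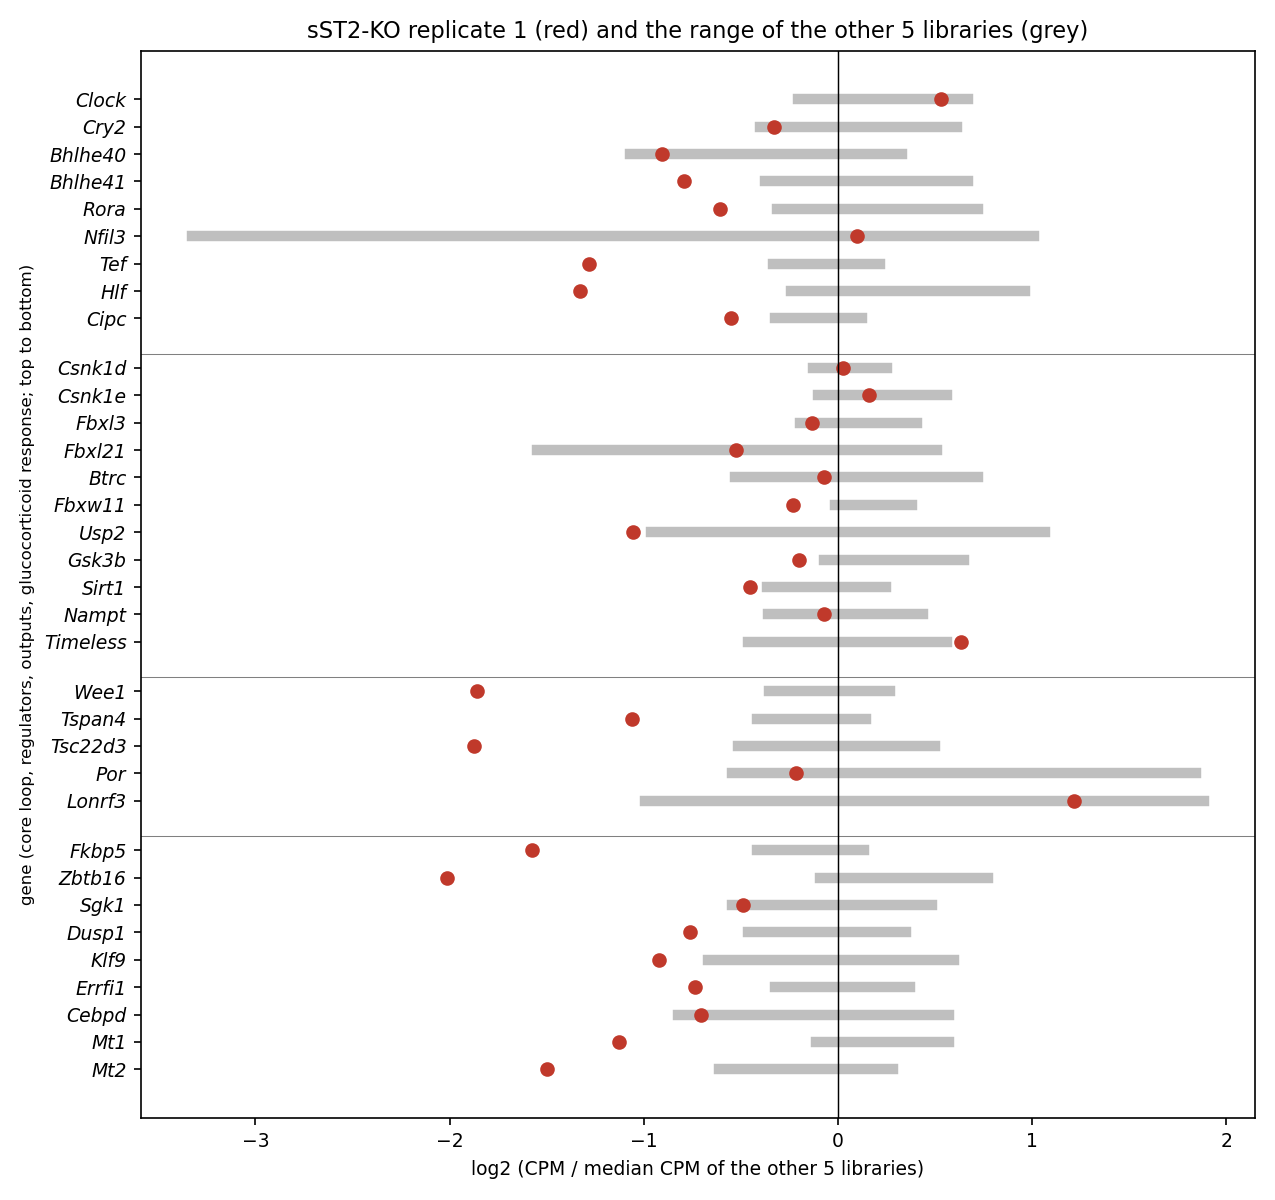
CPM of other clock genes and glucocorticoid response genes in sST2-KO replicate 1 (red points) as log2 of the ratio to the median of the other 5 libraries, whose range is the grey bar. Points for Tef, Hlf, Wee1, Tspan4, Tsc22d3, Fkbp5 and Zbtb16 lie left of the bars, and Clock lies inside its bar.

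Markers of other cell types also differed between sST2-KO replicate 1 and the other libraries. By the measure used above for the clock genes, the median log2 CPM in that library minus the median of the other 5, brown adipocyte markers were at 1.996 (0 of 5 negative), striated muscle markers at 1.15 (2 of 4 negative), white adipocyte markers at 0.99 (0 of 4 negative) and airway markers at -1.48 (3 of 4 negative), beside -1.23 for the clock members. The airway value came from low counts, 19, 17, 18 and 4 in that library for Scgb1a1, Scgb3a1, Bpifa1 and Epcam. The summed airway level there, 3.30 CPM, lay between WT replicate 1 (1.82 CPM) and sST2-KO replicate 3 (5.06 CPM). Smooth muscle markers were at -0.021, macrophage markers at -0.42, hepatocyte markers at -0.39 and erythroid markers at 0.54. By summed level it lay within the range of the other libraries for 7 of 8 marker lists, the exception being hepatocyte markers at 8.41 CPM against 8.91 CPM or more elsewhere. Brown adipocyte markers summed to 1138, 124 and 2303 CPM in sST2-KO replicates 1 to 3 and 278, 155 and 217 CPM in WT replicates 1 to 3, and white adipocyte markers to 1250, 144 and 1252 CPM in sST2-KO and 939, 182 and 700.4 CPM in WT. Both sums were high in sST2-KO replicates 1 and 3 and low in sST2-KO replicate 2 and WT replicate 2. The part of these cell types in the clock values was not tested. Summed macrophage markers were 2363, 3348 and 1579 CPM in sST2-KO and 2546, 2309 and 2376 CPM in WT. Most of that sum was Lyz2, with 2051, 3152 and 1373 CPM in sST2-KO and 2043, 1844 and 1887 CPM in WT. The other 4 listed, Adgre1, Itgam, Cd68 and Csf1r, were lower in sST2-KO without overlap, and 19.1% of all tested genes did not overlap. DESeq2 called 3 of the 5 lower, with 1.78% of the genes entered called, and edgeR called 0.

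Among 11423 other named protein-coding genes with a mean of at least 5 CPM, those most like the clock index over the 6 libraries were Resf1, Rnaseh2b, Slc10a6, Tbx20 and Tmem127, with Pearson's r of 0.961 to 0.973. The most opposed were Mospd3, Ctnnal1, Col5a3, Rufy3 and Atpaf1, with r of -0.979 to -0.956. sST2-KO replicate 1 lies far from the rest on the index, and these values are given as a description over 6 libraries. Col5a3, a fibrillar collagen gene, had 77.2, 33.3 and 22.0 CPM in sST2-KO replicates 1 to 3 and 31.0, 24.7 and 32.6 CPM in WT replicates 1 to 3. On the same measure the 5 output genes had r of 0.953 for both Wee1 and Tspan4, 0.919 for Tsc22d3, 0.074 for Por and -0.490 for Lonrf3.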

How the data were processed

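Bulk poly-T-selected RNA-seq libraries of 6 aortas were compared, 3 sST2-KO and 3 WT by their titles. A single table of unnormalized counts for Ensembl genes was deposited by the authors, with gene length in bases. The submitters' processing notes name build mm39. The sources used here state no aligner, counter, strand setting or annotation. The test was edgeR 4.0.16 under R 4.3.3, with filterByExpr (minimum count 10, minimum total 15), TMM scaling, glmQLFit and glmQLFTest of sST2-KO against WT, Benjamini-Hochberg adjustment over all tested genes and calls at 0.05. Levels are CPM after TMM scaling, and log2 CPM used a prior count of 2. Standard errors (SE) were obtained as log2 change over the square root of F, without sign. Depth was 15615658 to 17988552 counts per library, and the members with the fewest counts, down to 9, carry the largest counting error.

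The members and the gene lists were chosen with earlier results of these data known. The text names the 10 members, core clock genes, up to 4 genes of lowest p of every other list and the 5 genes of highest and of lowest correlation with the clock index. Tsc22d3, Zbtb16, Fkbp5 and Dusp1, the single macrophage and airway markers and the genes overlapping members were named after their values were seen. The values of 1 listed core clock gene are not reported here, and it stays in the counts of its list. Promoters came from RefSeq (GRCm38.p6) and no coordinate was carried between builds. Alternatives were upper-quartile and RLE scaling, DESeq2 1.42.0 and limma-voom (limma 3.58.1), other filters, a threshold of 0.1, a replicate block and leaving out libraries. The edgeR step was run on simulated counts with large planted changes and a dispersion set well below that estimated here. That run checks the code and does not show how the test performs at the spread of these libraries. Plots were drawn with matplotlib 3.10.9.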

Additional observations from a re-analysis of the deposited data

How the results depend on the processing

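Under every alternative run 0 clock members and 0 other clock genes were called. These runs included edgeR with other scalings, filters, a threshold of 0.1 and each left-out library, and the separate tests of limma-voom and DESeq2. Over all genes edgeR called 0 (1806 at an unadjusted p under 0.05), DESeq2 called 291, and with each library left out in turn edgeR called 0 to 1. The difference in clock index, -1.64, ran from -2.61 to -0.26 with 1 library left out, the smallest size being that without sST2-KO replicate 1. Without both sST2-KO replicates 1 and 2, a setting added after the data were seen, it was 0.31. That setting leaves sST2-KO replicate 3 alone in its group, so 0.31 describes a single library against WT. The difference in log2 Dbp to Arntl ratio, -1.18, ran from -1.84 to -0.12 with 1 library left out. It was -1.90 without WT replicate 3 and sST2-KO replicate 2 together.

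Signs of members near 0 turned. Dbp (0.026) was -0.021 with upper-quartile scaling. With a replicate block, Dbp was at -0.14, Ciart at -0.35 and Per1 at -0.016. With limma-voom they were at -0.14, -0.41 and -0.048. Without WT replicate 3 and sST2-KO replicate 2 together, Dbp was at -0.42, Ciart at -0.41, Per1 at -0.16 and Cry1 at -0.034. With 1 library left out, ranges were -0.56 to 0.36 for Nr1d1, -0.53 to 0.35 for Dbp, -0.34 to 0.69 for Ciart, -0.17 to 0.69 for Per1, -0.53 to 0.35 for Per2 and -0.083 to 0.61 for Cry1. The cause was not tested. Replicate numbers did not pair the samples: same-numbered libraries had deviations correlated at 0.145, 0.046 and -0.087, and the block called 0 genes. No sample in groups of 3 could be tested as standing apart. Depth limits Npas2, Ciart and Arntl, with counts down to 9, 26 and 55.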
